A study of Mus musculus with 9 samples.

Results

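Zinc finger genes named Zfp plus a number lie in long runs on mouse chromosomes 7, 13 and 17. Their messenger RNA was followed here in 9 libraries of CD8+ T cells. The members are the protein-coding genes of GENCODE M21 (GRCm38) on these chromosomes with such a name, together with AI987944, a zinc finger gene on chromosome 7 that still carries a clone name. A gene also needed at least 10 counts in at least 4 libraries, counted without regard to strand. Of 162 genes with a fitting name, 142 passed, out of 55470 gene identifiers in the files: 79 on chromosome 7, 27 on chromosome 13 and 36 on chromosome 17. Just inside the count minimum were Zfp941, with 31, 31, 11 and 28 counts in the 4 libraries where it reached 10, and Zfp975, with 51, 53, 26 and 15. Just outside was Zfp108, which reached 10 counts in 3 libraries (21, 12 and 14). The remaining 140 members reached 10 counts in 6 or more libraries.

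All cells carried OT-I, a transgenic receptor that recognises an ovalbumin peptide. They had been activated in culture, given a short hairpin RNA (shRNA), sorted on its Ametrine reporter, transferred into C57BL/6 mice and recovered by sorting on day 7 of infection with LmOVA, Listeria monocytogenes that expresses ovalbumin. The control group (Bdh1-WT;shCtrl, n = 4) had intact Bdh1 and a hairpin against firefly luciferase. The ketolysis-deficient group, called DKO (Bdh1-KO;shOxct1, n = 5), was a Bdh1 knockout with a hairpin against Oxct1. No library carried only the knockout or only the Oxct1 hairpin, so the effects of the 2 cannot be told apart. The labels give neither the age of the mice nor the kind of Bdh1 allele, and they do not say whether replicates came from separate donors, so p-values measure the spread between these libraries.

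Most mouse genes named Zfp in such runs encode a row of C2H2 fingers, each of which holds a zinc ion and touches a few bases of DNA. Many also start with a KRAB domain, which binds the scaffold protein Trim28. Trim28 then brings in the histone methyltransferase Setdb1 and heterochromatin proteins, and this system is best known for silencing transposable elements. The genes arose by repeated duplication, so neighbours often share long stretches of sequence. A script that read the coding sequences in frame found C2H2 fingers in 141 of the 142 members, with a median of 12 fingers and 33 in the longest row. The member without one was Zfp36, which encodes tristetraprolin, an RNA-binding protein with another kind of finger that speeds the decay of cytokine messenger RNAs. The name rule therefore takes in at least this gene of another family.

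The 5 members that fell in DKO share a short word in their fingers, and the sequences that carry it are shown first. The hairpin against Oxct1 is not in the sources used here, so its seed (bases 2 to 8 of the guide strand, the part that pairs with a target) could not be read. Instead, each 7-base word of the Oxct1 transcript was scored on the sense strand by the median change of the genes that hold it in the 3' UTR, over 10601 tested genes. The members, their family on these chromosomes, Oxct1 and genes on chromosomes X and 16 were left out of the scoring. The word with the lowest score was GTAATCA. It stands once in the Oxct1 transcript, in the 3' UTR. In 7 members the transcript holds this word 4 to 15 times, mostly in the coding sequence of the fingers. Below is the first copy that opens a finger in each of these members, the copy in Oxct1, and for contrast the same place in the first finger of Zfp53 and Zfp945, which lack the word. Capitals mark the 7 bases that begin at the second base of the codon for the finger's first cysteine, and in Oxct1 the word itself. All are read 5′ to 3′ from GENCODE M21 transcripts.
Zfp808: accctacaaatGTAATCAatgtgataaagc
Zfp934: accctacaaatGTAATCAatgtgataaagc
Zfp97: accctatgaatGTAATCAatgtgggaaagc
Zfp959: accctataaatGTAATCAgtgtgataaaac
AI987944: accttatgaatGTAATCAgtgtggtaaggc
Zfp825: accttatgaatGTAATCAatgtggtaaagc
Zfp975: actctatgaatGTAATCAatgtggtaaagc
Oxct1: gaaggatgtcaGTAATCAatagttacatta
Zfp53: accacaccaatGTGAGAAatgcaggaaatg
Zfp945: gccctatcaatGTACAAAgtgtagtaaatc
The zinc finger genes share the frame of this window, and the 30 bases of Zfp808 and Zfp934 are the same, while the Oxct1 site shares only the word.

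Both targeted genes were lower in DKO. Oxct1, which activates acetoacetate for use in mitochondria, stood at 71.5, 62.2, 59.8 and 59.2 CPM (counts scaled to library size) in the control libraries and at 4.61, 5.49, 5.09, 5.51 and 5.12 CPM in DKO libraries (log2 fold change -3.61, SE 0.10, adjusted p = 4.58e-09, edgeR quasi-likelihood test with Benjamini-Hochberg adjustment over all genes). Bdh1, which oxidises beta-hydroxybutyrate, stood at 25.1, 35.1, 30.3 and 31.5 CPM in control and at 11.6, 11.6, 11.4, 8.98 and 9.63 CPM in DKO libraries (log2 fold change -1.52, SE 0.13, adjusted p = 1.36e-04). Libraries held 45205993 to 59853080 counts in genes. All 6 markers of CD8 T cells were above 1 CPM, as were 2 of 8 B cell genes, 7 of 10 myeloid genes, 4 of 8 erythroid and platelet genes and 2 of 4 CD4 T cell genes. Pax5 and Ebf1 among the B cell genes and S100a8 and S100a9 among the myeloid genes were below 0.1 CPM on average. Summed CPM of the B cell genes was 179 to 265 in control and 187 to 209.8 in DKO, that of the erythroid and platelet genes 6.88 to 36.1 and 10.3 to 35.7, and that of the CD4 genes 30.7 to 39.3 and 34.6 to 46.6, each with overlap. Summed CPM of the 10 myeloid genes was 162 to 197 in control and 114 to 124 in DKO, that of the 6 CD8 genes 6050 to 8018 and 5488 to 5976, and that of 20 genes of cycling cells 998 to 1180 and 1318 to 2040. The sums of these last 3 lists did not overlap between the groups, and their part in the results that follow was not tested. In bulk RNA, fewer cells that express a gene and less RNA per cell cannot be told apart.

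Of the 142 members, 141 passed the filter on low counts, Zfp941 being left out, and 6 of these passed an adjusted p of 0.05: 5 fell (Zfp808, AI987944, Zfp959, Zfp825 and Zfp97) and 1 rose (Zfp367). These are 4.26% of the members tested, against 2.83% of all 14918 genes tested. The fall was called for 3.55% of the members against 1.51% of all genes, and the rise for 0.709% against 1.32%. AI987944, among those that fell, was added beside the name rule with earlier results of these data known. These shares are therefore a description only. The median log2 fold change was 0.01 over the members and -0.01 over all genes tested, with 74 members above 0 and 67 below. At an unadjusted p under 0.05 stood 22 members (15.6%, against 15.98% of all genes). A log2 fold change of 0.5 or more in size was seen in 15 of the 141, and the share over all genes was not counted. The 15 include genes of low count and wide SE, such as Zfp229 (SE 0.88), Zfp975 (SE 0.87) and Zfp575 (SE 0.73). The number of calls depended on single libraries and ranged from 3 (without DKO replicate 1, 3 or 5) to 8 (without control replicate 1). Zfp808, AI987944 and Zfp959 were called without any one of the 9 libraries.

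Zfp808 had the lowest fold change among the 5 that fell. It lies at chr13:62129886-62236144 on the plus strand, and its transcript encodes 22 fingers. Control libraries had 7.099, 6.90, 8.18 and 6.84 CPM, and DKO libraries 3.38, 2.95, 2.94, 3.25 and 3.81 CPM. Every DKO library was below every control library, and no library lay between 3.81 and 6.84 CPM. The mean was 7.26 ± 0.63 CPM (SD, n = 4) over the control libraries and 3.27 ± 0.36 CPM (SD, n = 5) over DKO, a log2 fold change of -1.15 (SE 0.14, edgeR adjusted p = 0.00218). Its transcript holds GTAATCA 15 times, all in the coding sequence with a median of 84 bases from one to the next, the length of a finger with its linker.

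AI987944 lies at chr7:41372923-41393379 on the minus strand and encodes 9 fingers. Its level was 34.6, 40.6, 37.1 and 34.8 CPM in control and 21.7, 25.3, 21.4, 24.5 and 22.4 CPM in DKO. The groups were well apart, and the spread within each was small: 36.8 ± 2.8 CPM (SD, n = 4) over the control libraries and 23.1 ± 1.7 CPM (SD, n = 5) over DKO. The log2 fold change was -0.67 (SE 0.09, edgeR adjusted p = 0.00379). The transcript holds the word 5 times, 4 in the fingers and 1 in the 3' UTR.

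Zfp959 lies at chr17:55892093-55898928 on the plus strand and encodes 9 fingers. It stood at 25.5, 29.8, 26.2 and 27.4 CPM in control and at 14.9, 19.6, 17.4, 17.9 and 14.7 CPM in DKO. All DKO libraries were lower than all control libraries, with means of 27.2 ± 1.9 CPM (SD, n = 4) and 16.9 ± 2.1 CPM (SD, n = 5). The log2 fold change was -0.69 (SE 0.11, edgeR adjusted p = 0.00823). The word stands 7 times in its coding sequence.

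Zfp825, at chr13:74480054-74493992 on the minus strand, encodes 6 fingers. Control libraries held 26.4, 18.2, 20.5 and 16.4 CPM and DKO libraries 13.7, 13.6, 11.6, 13.1 and 11.1 CPM. Control replicate 1 was highest, and the groups did not overlap. The log2 fold change was -0.69 (SE 0.14, edgeR adjusted p = 0.0282). Its transcript holds the word 3 times in the fingers and 1 time in the 3' UTR. The call was lost without control replicate 3 or without DKO replicate 1, 3, 4 or 5, with adjusted p between 0.0537 and 0.0829.

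Zfp97, at chr17:17121415-17146831 on the plus strand, encodes 13 fingers. Its CPM, not scaled by exon length or by unique windows, was the lowest of the 5. It was counted at 2.77, 2.37, 3.78 and 2.85 CPM in control and at 1.17, 1.49, 1.18, 1.99 and 1.48 CPM in DKO. The highest DKO library, replicate 4, was still below the lowest control library. The log2 fold change was -1.01 (SE 0.22, edgeR adjusted p = 0.0353). The word stands 7 times in its coding sequence and 3 times in its 3' UTR. The call was lost without control replicate 3 or 4 or without DKO replicate 1, 2, 3 or 5, with adjusted p between 0.0707 and 0.0973.

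Zfp367, the member that rose, lies alone at chr13:64133018-64153202 on the minus strand, encodes 2 fingers and does not hold the word. It was at 19.8, 22.0, 23.5 and 19.5 CPM in control and at 28.2, 26.0, 29.8, 29.5 and 31.4 CPM in DKO. Its DKO libraries were all higher, with a log2 fold change of 0.45 (SE 0.10, edgeR adjusted p = 0.0345). The summed level of cycling genes given above, of which 13 of 20 rose and 0 fell, was higher in the same libraries, and its part in this change was not tested. The call was lost without control replicate 2 or 4 or without DKO replicate 1, 3, 4 or 5 (adjusted p 0.0623 to 0.0954), and with no filter on low counts (adjusted p = 0.0509).

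**Figure D1:**
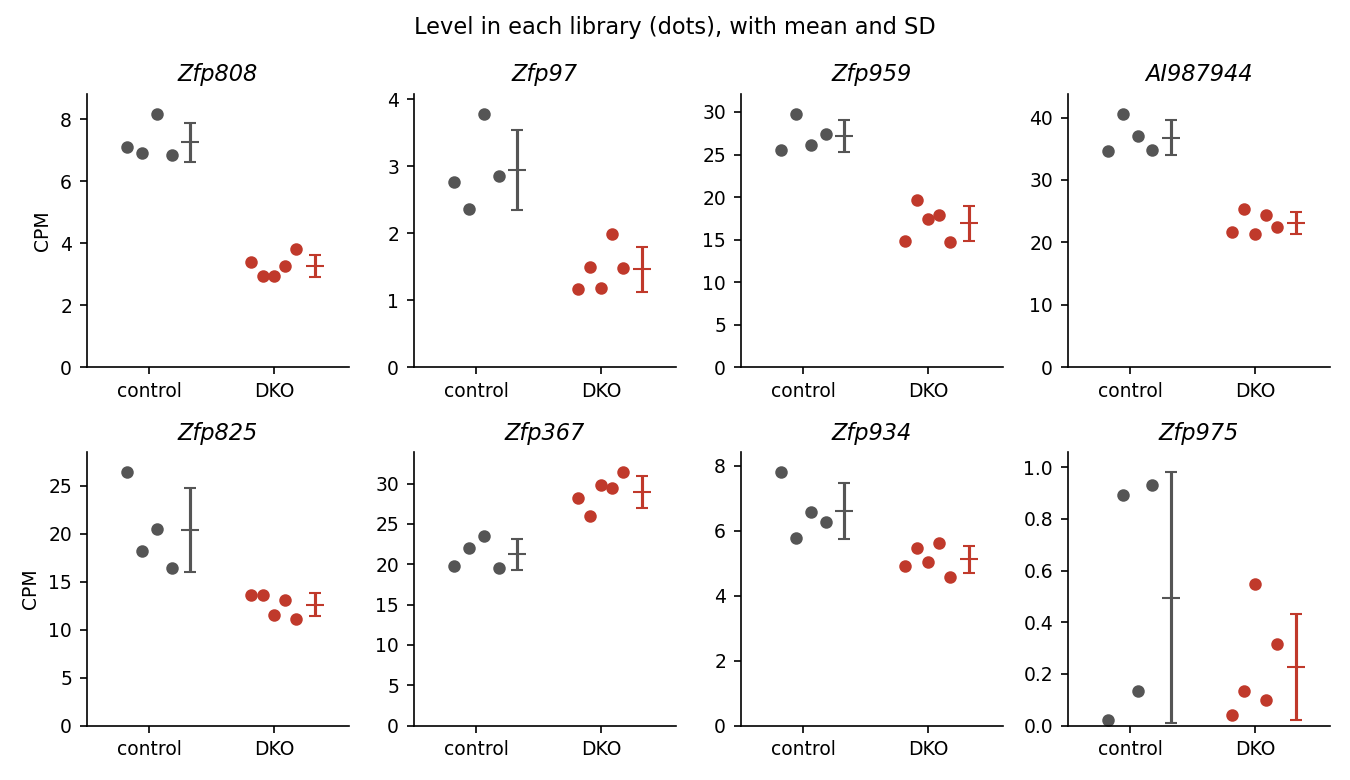
Level in CPM of 8 members in each library, with control in grey and DKO in red; dots are libraries in replicate order, and the bar beside them is the mean with its SD. The 5 members that fell (Zfp808 to Zfp825) and Zfp934 have every DKO dot below every control dot, Zfp367 has every DKO dot above, and Zfp975 overlaps at under 1 CPM.

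The levels of both groups lay apart for 14 of the 141 members tested (9.93%), against 8.71% of all genes tested. Beyond the 6 called members these were Zfp934, Zfp53, Zfp945 and Zfp523, lower in DKO, and Zfp131, Zfp36, Zfp27 and Zfp473, higher in DKO. Zfp945 lay just outside the threshold. It was at 56.3, 43.0, 48.7 and 43.0 CPM in control and at 34.6, 31.7, 37.5, 39.6 and 31.0 CPM in DKO libraries (log2 fold change -0.45, SE 0.11, edgeR adjusted p = 0.0550), and it holds no copy of the word. Zfp523 had a log2 fold change of -0.66 (SE 0.18, edgeR adjusted p = 0.0870) and likewise no copy. Its control libraries ranged from 8.06 to 15.7 CPM and its DKO libraries from 6.49 to 7.74 CPM. So the low end of the members holds genes both with and without the word.

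Levels can be compared between members only per length of exon. Per kilobase, the mean ran from 0.0460 CPM (Zfp941) to 52.8 CPM (Zfp36), with a median of 2.59. After Zfp36 came Zfp53 at 35.3, Zfp110 at 32.4, Zfp51 at 29.8 and Zfp87 at 20.6 CPM per kilobase. None of these 5 passed the test. Zfp110, whose product binds the neurotrophin receptor p75, had a log2 fold change of -0.05 (SE 0.09), Zfp51 of 0.01 (SE 0.08) and Zfp87 of -0.01 (SE 0.08). Zfp53 was at 123, 114, 115 and 114 CPM in control and at 104, 98.1, 98.4, 102 and 106 CPM in DKO libraries, a log2 fold change of -0.19 (SE 0.07, edgeR adjusted p = 0.188). Zfp36 was at 135, 174, 168 and 177 CPM in control and at 206, 179, 196, 202 and 212 CPM in DKO libraries, a log2 fold change of 0.29 (SE 0.09, edgeR adjusted p = 0.147). Thus the most abundant members did not pass the test in either direction, although Zfp53 and Zfp36 separated the groups.

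Runs of at least 3 annotated zinc finger genes, with starts at most 500 kb apart, held 120 of the members in 14 runs, named here by chromosome and a letter in genomic order. Only 2 of the 6 called members lie in a run, and both runs are short: Zfp808 in run 13A (3 annotated genes) and Zfp959 in run 17C (3 annotated genes). The other 12 runs, with 117 members tested, held 0 called members by the edgeR test. The largest was 17A, with 21 members between start sites 21008903 and 23599487 of chromosome 17. Of these, 9 had a log2 fold change above 0 and 12 below, with a median of -0.04. Run 13B, the run of 18 members that also holds Rsl1, a repressor of male-specific liver genes, had 7 above 0 and 11 below, with a median of -0.03. Its members lay between -0.33 (Zfp429) and 0.23 (Zfp738). Run 7G had 15 members, 7 above 0 and 8 below, with a median of -0.07. The medians of these 12 runs lay between -0.12 (run 7E) and 0.11 (run 7I), and each run had members on both sides of 0.

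**Figure D2:**
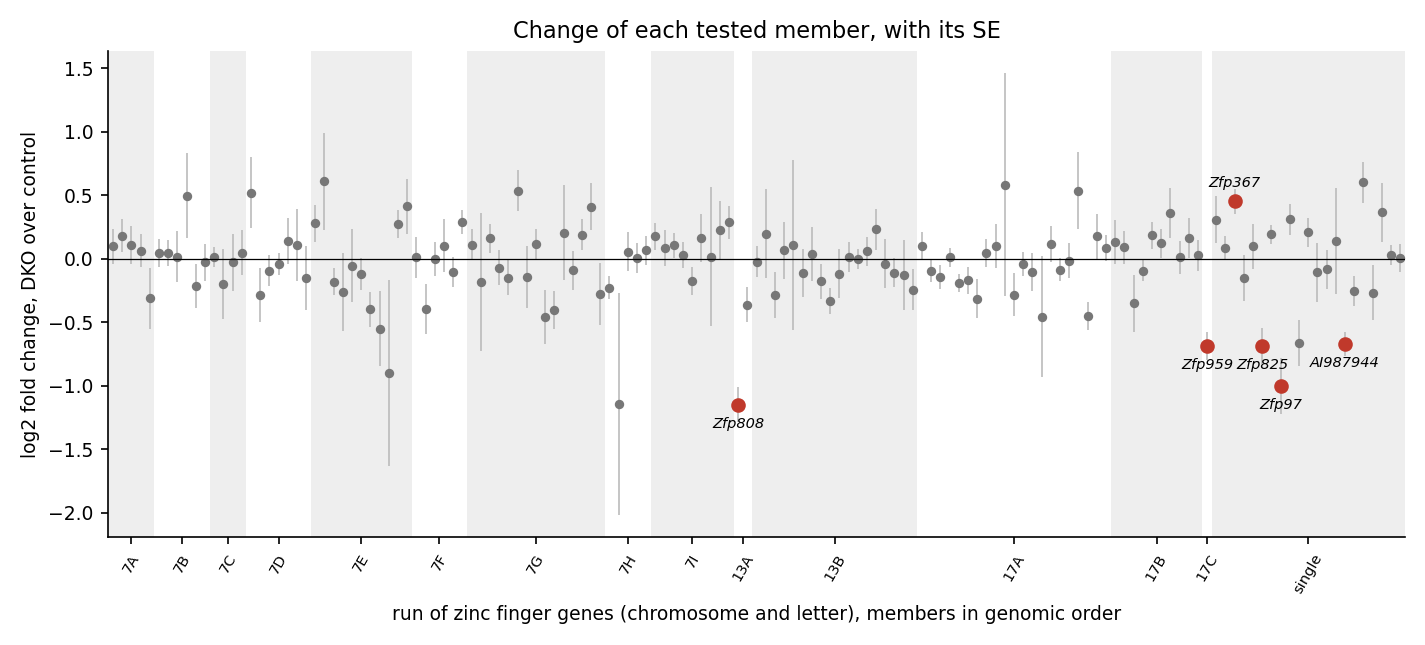
Log2 fold change (DKO over control) of the 141 tested members with its SE, in genomic order within each run; the last block holds members outside runs, and red marks an adjusted p under 0.05. Called members stand in runs 13A and 17C and outside runs, and the longer runs scatter around 0.

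Neighbours were compared directly within libraries. For each pair of adjacent tested protein-coding genes, the difference of their log2 CPM (second gene minus first, in genomic order) was tested between the groups with limma. Of 77 pairs made of 2 adjacent members of a run, 0 passed an adjusted p of 0.05, against 4.05% of 10430 pairs over the genome. At an unadjusted p under 0.05 were 6 of the 77 (7.79%), against 18.7% of all pairs. The ratios of the groups overlapped in all 77 member pairs, whereas 10.1% of all pairs had no overlap. The median size of the difference was 0.22 over the member pairs and 0.25 over all pairs, on the log2 scale. Members of 39 of the pairs lay on opposite sides of 0. Without control replicate 1, 1 pair was called: Zfp74 and Zfp568 in run 7G (difference -0.79, limma adjusted p = 0.0261). Zfp568, a repressor of a placental Igf2 transcript, was at 8.98 CPM in control replicate 1 and at 13.5 to 19.7 CPM in the other control libraries.

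The member pair with the smallest p lies in run 7G as well. Zfp27 was at 6.75, 5.68, 4.73 and 8.23 CPM in control and at 8.62, 8.84, 10.6, 8.87 and 9.08 CPM in DKO libraries (log2 fold change 0.54, SE 0.16, edgeR adjusted p = 0.118). Its neighbour Zfp420 was at 8.14 to 11.8 CPM in control and 8.13 to 9.37 CPM in DKO. The ratio of Zfp27 to Zfp420 was 0.443 to 1.01 in control and 0.946 to 1.31 in DKO, so the groups overlapped (difference 0.69, SE 0.24, limma adjusted p = 0.151). In run 17A, Zfp945 and its neighbour Zfp946, which had log2 fold changes of -0.45 and 0.54, differed by -1.01 (SE 0.36, limma adjusted p = 0.158).

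The called members could not enter that count, because no tested neighbour of theirs is a member of the same run. Of 110 adjacent pairs made of a member and a gene that is no member of its run, 1 passed the limma test, against 4.05% of all pairs. This pair was Zfp523 and Def6, a regulator of small GTPases in lymphocytes, with a difference of 0.68 (SE 0.17, limma adjusted p = 0.0424). The surroundings of the called members are given within 300 kb, for tested protein-coding genes. Within that distance of AI987944 lay 3 genes, of Zfp825 7, of Zfp959 16, of Zfp367 6, and of Zfp808 and Zfp97 1 each. By the edgeR test, 1 of these 34 neighbours was called, against 2.83% of all genes tested. It was Lrg1, 229.9 kb from Zfp959, at 0.97 ± 0.19 CPM (SD, n = 4) over the control libraries and 0.32 ± 0.14 CPM (SD, n = 5) over DKO. The fall of Zfp825 and Zfp97 stood beside tested neighbours with small changes. Those of Zfp825 lay between -0.12 and 0.11 in log2 fold change. Riok2, the 1 tested neighbour of Zfp97 and 252.9 kb away, was at -0.09 (SE 0.12). Zfp960, which starts 57.3 kb from Zfp97, was not tested. The difference of Riok2 from Zfp97 was 0.92 (SE 0.26, limma adjusted p = 0.0766), without overlap of the ratios.

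Near the other 3 called members lie tested zinc finger genes that hold the word too. In run 13A, Zfp934 starts 441.3 kb from Zfp808 and holds 8 copies. Its control libraries were at 7.80, 5.76, 6.57 and 6.26 CPM and its DKO libraries at 4.92, 5.45, 5.02, 5.63 and 4.57 CPM. The groups did not overlap, but the change missed the threshold (log2 fold change -0.36, SE 0.14, edgeR adjusted p = 0.218). The ratio of Zfp808 to Zfp934 was 0.910, 1.20, 1.25 and 1.09 in control and 0.687, 0.540, 0.586, 0.578 and 0.833 in DKO. The ratio was lower in every DKO library than in any control library. Because called members were chosen for their change, such a gap partly restates the call, here and for Zfp97 and AI987944. Between them lies Gm3604, not a member by name, with 12 copies and a log2 fold change of -0.48 (SE 0.22, edgeR adjusted p = 0.322). Its difference from Zfp808 was 0.68 (SE 0.26, limma adjusted p = 0.18).

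In run 17C, Zfp119a starts 13.2 kb and Zfp119b 57.4 kb from Zfp959, and both hold 6 copies. Their names end in a letter and so are not members. Zfp119a had a log2 fold change of -0.43 (SE 0.21, edgeR adjusted p = 0.346) and Zfp119b of -0.31 (SE 0.22, edgeR adjusted p = 0.538). The ratio of Zfp959 to Zfp119a was 3.41 to 7.62 in control and 3.52 to 5.02 in DKO, and that to Zfp119b 7.86 to 10.4 and 4.09 to 11.6. Both ratios overlapped. The difference of Zfp959 from Zfp119a was -0.29 (SE 0.23, limma adjusted p = 0.536) and that of Zfp119b from Zfp959 0.34 (SE 0.28, limma adjusted p = 0.557), so a difference in change between Zfp959 and these neighbours was not detectable in these libraries.

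The ratios of AI987944 to zinc finger genes near it lay apart between the groups. AW146154, a zinc finger gene 106.5 kb away with 7 copies, was at 9.51 ± 1.39 CPM (SD, n = 4) over the control libraries and 8.58 ± 0.82 CPM (SD, n = 5) over DKO, a log2 fold change of -0.15 (SE 0.13, edgeR adjusted p = 0.638). The ratio of AI987944 to AW146154 was 4.38, 3.81, 4.21 and 3.25 in control and 2.43, 2.998, 2.32, 2.68 and 3.11 in DKO, without overlap, but the difference missed the threshold (0.53, SE 0.16, limma adjusted p = 0.0865). The member Zfp788, 239.8 kb away with 1 copy, had a log2 fold change of -0.26 (SE 0.12, edgeR adjusted p = 0.323). The ratio of AI987944 to Zfp788 was 3.65 to 5.07 in control and 2.81 to 3.54 in DKO, again without overlap. AW146154, with more copies of the word than AI987944, thus had a log2 fold change closer to 0.

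**Figure D3:**
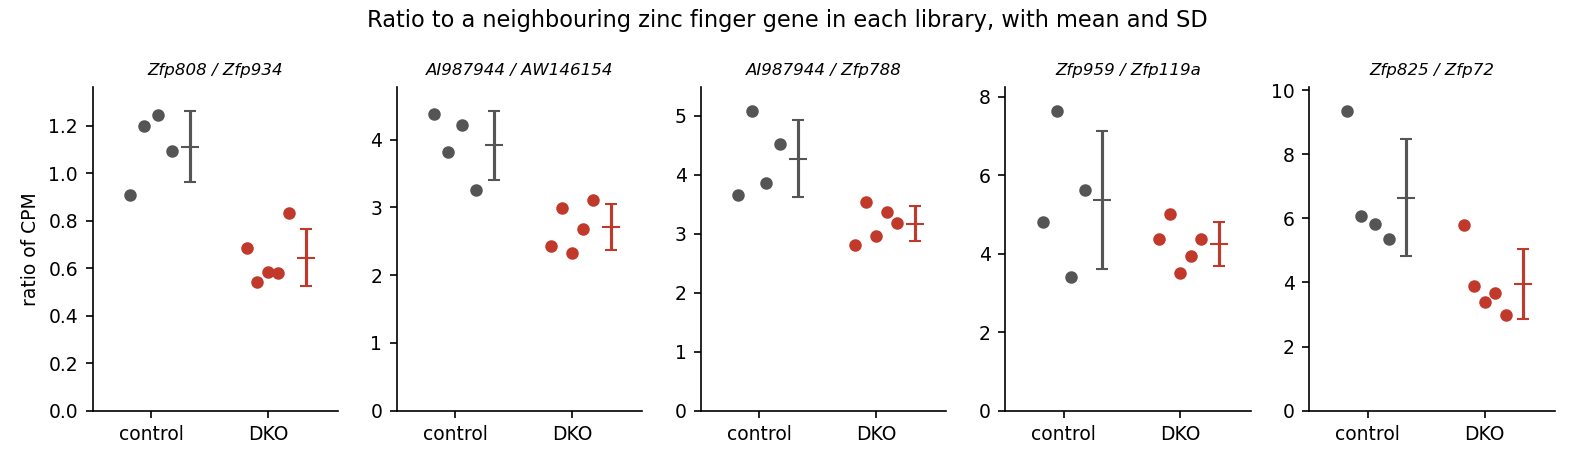
Ratio of CPM between a called member and a zinc finger gene near it in each library, with control in grey and DKO in red; the bar beside the dots is the mean with its SD. The ratios of Zfp808 to Zfp934 and of AI987944 to AW146154 and to Zfp788 do not overlap between the groups, while those of Zfp959 to Zfp119a and of Zfp825 to Zfp72 do.

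The word GTAATCA was described further in all members. Among genes outside the family, 650 hold it in the 3' UTR (6.13%), and their median log2 fold change was -0.06, against 0.02 for the 9951 genes without it. The difference of -0.09 was the lowest of the 3008 Oxct1 words held by at least 100 genes, and the next lowest was -0.04. Without control replicate 3 it was -0.05 and still the lowest. It was also the lowest of all 7-base words, in the search added after seeing the data. Because this word was chosen by the same contrast, the members that hold it are described with no test. In the longest 3' UTR of any protein-coding transcript, 19 of 141 members hold it (13.5%). Such a UTR can take in bases that code in another transcript. Zfp808 has 6 copies there, but 0 in the 3' UTR of its transcript with the longest coding sequence. The share of 13.5% is therefore not one of copies outside coding sequence. Zfp473 has 1 copy there and 0 in its transcript with the longest coding sequence. In the whole transcript with the longest coding sequence, 26 of 142 members hold the word. Of these 26, 19 hold 1 to 3 copies and 7 hold 4 or more, a bound set after the copies and changes were seen.

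The 7 members with 4 or more copies were Zfp808 (15), Zfp975 (12), Zfp97 (10), Zfp934 (8), Zfp959 (7), AI987944 (5) and Zfp825 (4). They include all 5 members that fell by the edgeR test above. With the DESeq2 Wald test 9 members were called lower. Among these were Zfp945, Zfp523 and Zfp53 with 0 copies and Zfp429 with 1 copy. All 7 had a log2 fold change below 0, from -1.15 to -0.36, with a median of -0.69. Zfp975 was counted at 0.0206, 0.894, 0.133 and 0.932 CPM in control and at 0.0395, 0.136, 0.547, 0.0974 and 0.317 CPM in DKO, and its change of -1.15 had an SE of 0.87. The 19 members with 1 to 3 copies had a median of -0.06, and none was called by the edgeR test. Among them, the 15 with 1 copy had a median of -0.08 and the 4 with 2 or 3 copies a median of 0.13. The 115 tested members without the word had a median of 0.03, with 0 called lower and 1 called higher. For comparison, tested protein-coding genes other than the members had a median of 0.02 with no copy, -0.05 with 1, -0.11 with 2 or 3 and -0.43 with 4 or more. The share called lower in these 4 classes was 1.28%, 4.81%, 11.4% and 15.6%. These genes include those whose changes picked the word, and the class with 1 copy includes Oxct1 itself. The order of these classes was therefore partly set by that choice and is a description only. The share with the word and the number of copies both grow with transcript length, which was not held fixed.

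Zinc finger genes outside the members held many copies too, and those on most other chromosomes could enter the scoring that picked the word. Of 39 tested genes with 4 or more copies, 32 were not members, and 27 of these encode 2 or more fingers. Among the 32, 29 had a log2 fold change below 0 and 5 were called lower, among them Zfp120 on chromosome 2 (4 copies, log2 fold change -0.58, SE 0.11, edgeR adjusted p = 0.0188) and Zfp933 on chromosome 4 (6 copies, -0.77, SE 0.17, edgeR adjusted p = 0.0345). The exceptions above 0 were D10Wsu102e, A630089N07Rik and Atad2b. Single genes departed from the order of the medians: Zfp950 on chromosome 19 with 10 copies had a log2 fold change of -0.21 (SE 0.12), and Zfp825 with 4 copies had -0.69. Zinc finger genes named Zfp on other chromosomes were called in 4 of 148 cases (3 lower and 1 higher), or 2.703%, with a median of 0.03. Split by copies, their median was 0.04 with no copy (114 genes), 0.09 with 1 (22 genes), -0.42 with 2 or 3 (4 genes) and -0.40 with 4 or more (8 genes).

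**Figure D4:**
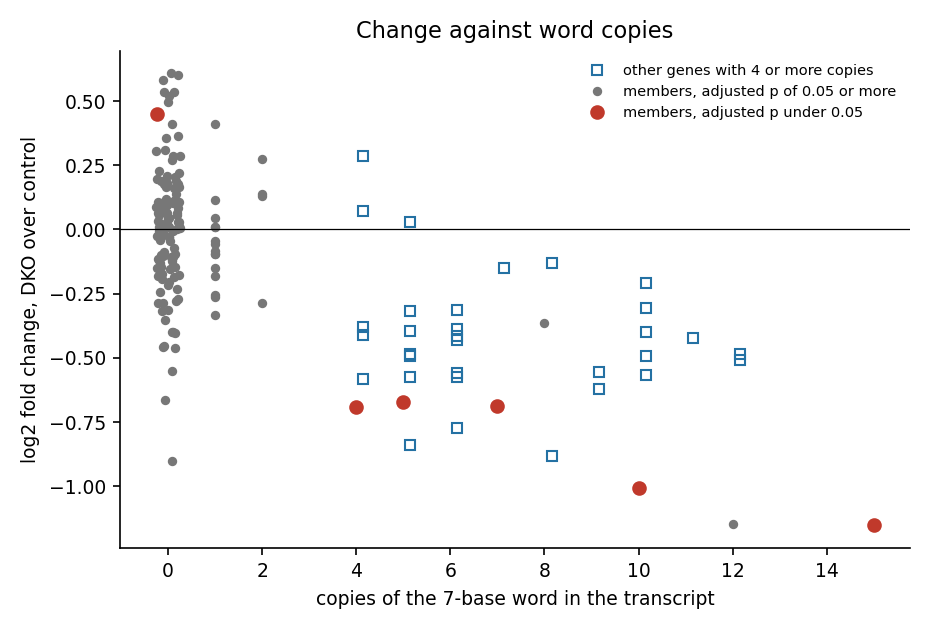
Log2 fold change (DKO over control) against the number of copies of GTAATCA in the transcript with the longest coding sequence, for the 141 tested members (filled, red with an adjusted p under 0.05) and for 32 other genes with 4 or more copies (open squares). All members with 4 or more copies lie below 0, members with 0 copies scatter around 0, and 3 of the open squares lie above 0.

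The copies sit at one place of the finger. In the 7 members with 4 or more copies, 61 copies were counted, 51 in coding sequence and 10 in 3' UTRs. All 51 coding copies begin at codon position 2, and 48 of them begin in the codon of the first cysteine of a finger. Of the 84 fingers of these 7 members, 48 carry the word there. Over all 1733 fingers of the 141 members that have fingers, 407 different words stand at this place, and GTAATCA is the seventh most frequent, with 55 fingers (3.17%). The most frequent, GTAGTGA, stands in 91 fingers. The other members together carry GTAATCA in 7 fingers. A match is only a run of letters, and whether the hairpin bound any of these transcripts was not tested.

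The deposited counts hold reads with a single best place in the genome, so a gene with a near copy loses reads. As a measure of this, each 75-base window of a member's transcripts was looked for in the transcripts of all other genes. Windows shared only with a gene that overlaps the member at its own place still counted as unique. Zfp213, for example, stood at 100% with 49.9% of its windows in an overlapping gene. The genome itself was not searched, so the share of unique windows is an upper limit. It was 100% for 78 of the 142 members, and the median was 100%. Below 90% were 12 members. The lowest was Zfp97 at 26.0%, which shares 73.6% of its windows with Zfp960, followed by Zfp59 at 60.9%, Zfp747 at 80.7%, Zfp934 at 81.4%, Zfp975 at 82.9% and Zfp825 at 83.0%. Zfp808 was at 83.5%, with 11.5% of its windows shared with Zfp934, Zfp959 at 92.0% and AI987944 at 93.7%. All 5 members that fell were thus below 100%, and 3 of them were among the 12 below 90%. The other 9 of the 12 were not called, among them Zfp59 with a log2 fold change of -0.01 (SE 0.13). The level of Zfp97 rests on those 26.0% of its windows and is uncertain. Its copy Zfp960 had 6 counts in all control libraries together and 5 in all DKO libraries.

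An example shows how long such shared stretches are. The following 75 bases, in lower case throughout because every base is shared, occur in 8 genes, of which 6 are zinc finger genes of these chromosomes by name (Zfp59, Zfp60, Zfp607a, Zfp607b, Zfp780b and Zfp974). They lie in the coding sequence of 5 of these in the transcript with the longest coding sequence.
Shared window: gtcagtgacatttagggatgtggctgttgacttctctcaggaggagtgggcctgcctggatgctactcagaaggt
A read that falls wholly inside this window cannot be assigned to any one of these genes. None of the 3 members among them (Zfp59, Zfp60 and Zfp974) passed the test, with log2 fold changes of -0.01, 0.01 and 0.10.

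**Figure D5:**
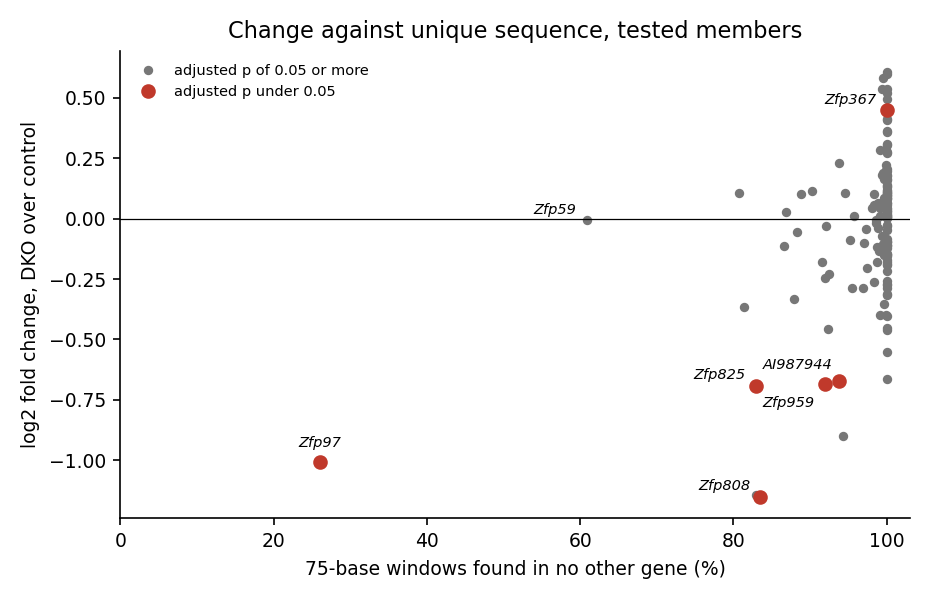
Log2 fold change (DKO over control) of the 141 tested members against the percentage of their 75-base windows found in no other gene, red with an adjusted p under 0.05. Windows shared only with a gene that overlaps the member at its own place counted as unique. Most members stand at or near 100% on both sides of 0, Zfp97 stands alone at 26.0%, and the other 4 members that fell lie between 83.0% and 93.7%.

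Counting without strand loses reads in a different way, where genes on opposite strands overlap. The sum of the 2 strand columns exceeded the unstranded count by more than 1.1 times in 21 members, with the highest ratio in Zfp459 (2.09), Zfp473 (1.86) and Zfp456 (1.83). With the strand sum, Zfp473 was called as well, while the 6 called members stayed called. Zfp473, known for a role in histone messenger RNA processing, was at 3.30, 3.40, 3.43 and 2.90 CPM in control and at 5.44, 3.997, 4.48, 4.74 and 6.07 CPM in DKO in the unstranded counts (log2 fold change 0.60, SE 0.16, edgeR adjusted p = 0.0807). Reads of this gene and of its partner on the other strand cannot be told apart.

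Of 30 genes whose products work with KRAB zinc finger proteins, all were tested and 1 rose (3.33%, against 1.32% of all genes), with 0 falling by the edgeR test. At an unadjusted p under 0.05 by the edgeR test were 5 of the 30, against 15.98% of all genes tested. Their median log2 fold change was 0.09, with 20 above 0 and 10 below, and none holds 4 or more copies of the word. The gene that rose was Uhrf1, which guides the methyltransferase Dnmt1 to newly copied DNA. It was at 6.09, 10.9, 9.51 and 10.6 CPM in control and at 26.6, 19.7, 26.1, 21.9 and 47.2 CPM in DKO libraries (log2 fold change 1.61, SE 0.26, edgeR adjusted p = 0.00949). All DKO libraries were higher, as was the summed level of cycling genes, whose part was not tested. Trim28, the scaffold that KRAB domains bind, was at 85.9, 77.0, 79.2 and 78.3 CPM in control and at 85.0, 89.5, 93.2, 86.9 and 83.2 CPM in DKO libraries (log2 fold change 0.13, SE 0.07, edgeR adjusted p = 0.428). Setdb1 was at 27.1, 60.7, 58.5 and 57.7 CPM in control and at 59.1, 57.8, 54.2, 54.3 and 56.2 CPM in DKO libraries (log2 fold change 0.14, SE 0.19, edgeR adjusted p = 0.765). Neither Trim28 nor Setdb1 separated the groups, and control replicate 1 was far below the other libraries for Setdb1.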

How the data were processed

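PolyA RNA from sorted OT-I CD8+ T cells (4 control and 5 DKO libraries) was made into SMART-Seq v4 and Nextera Flex libraries, per the labels' protocols. Whole-number counts of reads per gene were deposited for each library in STAR's format, and the unstranded column was used. Per the submitters' processing notes, Trim Galore 0.6.0, STAR 2.7.8a and mm10 were used. Annotation and read length are not given in the sources at hand. Reads assigned to no gene stayed out (unmapped 10.3 to 16.7% of a library, multimapping 5.80 to 6.79%, no feature 4.01 to 5.20%, ambiguous 4.97 to 5.31%). Libraries held 45205993 to 59853080 counts in genes. Of 55470 identifiers, 55140 matched GENCODE M21 (GRCm38) without their version.

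The quasi-likelihood test of edgeR 4.0.16 (R 4.3.3, robust, TMM, filterByExpr at 10 counts and a total of 15) was used on these deposited counts, with Benjamini-Hochberg adjustment over 14918 genes at 0.05. CPM uses TMM-scaled totals. Neighbour pairs were tested with limma 3.58.1 on log2 CPM (prior count 2) over 10430 pairs with starts at most 500 kb apart. On simulated data (DKO against control, 14918 genes, 200 changed by 1.5 on the log2 scale), edgeR called 76.0% of changed genes with 3.80% false calls; limma called 75.2% of 282 changed pairs among 10430 with 4.93% false calls. Words and windows were searched with Python 3.11.15, numpy 2.4.6 and pandas 2.3.3 in the M21 transcripts, on the sense strand for words and both strands for windows; a finger was C, 2 to 4 residues, C, 12 residues, H, 3 to 5 residues, H. Figures used matplotlib 3.10.9.

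Named genes were AI987944, called members, members of runs with a call, the 5 with the largest change and no overlap, genes of called pairs, the 5 highest per kilobase, members under 50% unique, called cofactors with Trim28 and Setdb1, and both targeted genes; other genes named as examples were chosen after their values were seen. Members and lists were chosen with earlier results of these data known. Alternatives were DESeq2 1.42.0 (size factors, or its Wald test), limma-voom, no filter, 1 CPM in 4 libraries, the strand sum, a replicate block, 1 sva surrogate variable and each library left out in turn, with other gaps, window lengths and prior counts.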

Additional observations from a re-analysis of the deposited data

Results flagged for a closer look

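Among 34 groups of libraries tested for a library far from the others (named members, targeted genes, Trim28 and Setdb1, in control and in DKO), 2 had such a library, and chance flags about 1 in 20. Setdb1 stood at 27.1 CPM in control replicate 1, against 57.7 to 60.7 CPM in the other control libraries. Zfp53 stood at 123.1 CPM in control replicate 1, against 113.5 to 114.7 CPM in the other control libraries. Control replicate 1 also had the largest share of unmapped reads (16.7%, against 10.3 to 12.3% in the other libraries), whose part in these values was not tested.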

How the results depend on the processing

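Zfp808, AI987944 and Zfp959 stayed past the threshold in all 16 alternatives other than the replicate block, and no called member changed direction in any. The count of called members was 6 with DESeq2 size factors, 12 with the DESeq2 Wald test, 12 with 1 surrogate variable and 10 with limma-voom, and all 6 members called before were among them; leaving out each library gave 3 to 8. Calls over all genes were 1059 with the DESeq2 Wald test, 1148 with 1 surrogate variable, 996 with limma-voom and 179 to 749 leaving out each library. For zinc finger genes on other chromosomes, 10, 7 and 7 were called with the DESeq2 Wald test, 1 surrogate variable and limma-voom, and 1 to 5 leaving out each library. Cofactor calls were 3 with 1 surrogate variable, 2 with limma-voom and 1 to 2 leaving out each library. Called neighbour pairs were 0 in every other alternative and 0 to 1 leaving out each library. The cause of these differences was not tested. Zfp945, which lacks the word, was called lower with the DESeq2 Wald test, 1 surrogate variable and limma-voom. The median of the 7 members with 4 or more copies lay between -0.77 and -0.66, and GTAATCA scored lowest in every fit. Same-numbered libraries did not deviate together (correlations -0.05, -0.01, 0.01 and -0.12). These correlations cannot settle whether libraries were matched by number, which the labels do not state. With the replicate number as a block, 1 member (Zfp808), 67 genes in all, 1 other zinc finger gene and 1 cofactor were called by the edgeR test. In that fit Zfp959 and AI987944 had edgeR adjusted p = 0.0737 and 0.0621. Depth limits Zfp975 and Zfp941, with mean counts of 18.6 and 11.7, and reads shared with Zfp960 limit Zfp97.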
